A study of Sus scrofa domesticus with 34 samples.

Results

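The genes described here encode the proteasome, its regulators and its assembly factors, and they were followed in 34 pig libraries from 4 diets. Members were the genes whose symbol begins with PSM, a letter from A to G and a number, with at least 10 counts in at least 8 of the 34 count files. Of 31907 gene identifiers in the files, 15029 could be paired with a symbol, 44 of these matched the symbol pattern, and 40 reached the count minimum. One of the 40, PSME3IP1, is named for binding PSME3 and is no subunit, so 39 genes of the proteasome itself remain. The other matches were PSMA8, a testis form of an alpha subunit, with 2 libraries above 0, PSMB11, the thymus subunit, and PSMC3IP, both at 0 in all 34 libraries, and PSME1, which had 10 or more counts in 6 libraries. PSMA6, PSMB5, PSMB6, PSMG1, PSMG2 and PSMG4 could not be paired with an identifier of the files and were not analysed here.

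The proteasome degrades proteins that carry a chain of ubiquitin. Its 20S core is a barrel of outer alpha rings and inner beta rings, and the cutting sites sit on the beta subunits encoded by PSMB5, PSMB6 and PSMB7. Under interferon these are exchanged for PSMB8, PSMB9 and PSMB10, which makes the immunoproteasome. A 19S particle caps the core. It holds a ring of ATPases (PSMC genes) that unfold the substrate, a base with ubiquitin receptors, and a lid with the deubiquitinase PSMD14. In skeletal muscle the system removes contractile proteins during atrophy, and in neurons it takes part in protein turnover at synapses.

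The libraries were made by 3′ mRNA sequencing of 34 pigs (18 females and 16 castrated males), all labelled as muscle. The control diet (standard cholecalciferol, n = 8) held 2000 (grower feed) and 1500 (finisher feed) IU/kg of cholecalciferol, which is vitamin D3, and the increased cholecalciferol diet (n = 10) held 3000 and 2500 IU/kg. The combination diet (n = 8) held the control dose plus 1000 IU/kg of 25(OH)D, the hydroxylated form, in both phases, and the 25(OH)D diet (n = 8) held 2000 and 1500 IU/kg of 25(OH)D with no cholecalciferol. Total gene counts ran from 1340442 to 30363640 per library, and the members together held 4332 to 80427 counts. The 5 libraries of file numbers 30 to 34 were the shallowest, at 1340442 to 2687728. They hold 4 of the 8 combination libraries and 1 25(OH)D library, so diet and file number are partly confounded there. File numbers 1 to 12 hold only standard cholecalciferol and 25(OH)D, and 13 to 24 only increased cholecalciferol and the combination. Within file numbers 1 to 24, differences between these 2 pairs of diets cannot be told apart from file order. File numbers 25 to 29 hold no 25(OH)D library.

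The muscle label was checked against marker genes. All 14 muscle markers with a symbol were detected in each library, with a summed level of 1277 to 8086 CPM, the counts of a gene scaled by the library's total of gene counts. The actin gene ACTA1 ranged from 482 to 4026 CPM and creatine kinase CKM from 41.1 to 781 CPM, whereas the calcium pump ATP2A1 had a median of 1.32 CPM. The myosin heavy chain genes MYH1, MYH2, MYH4 and MYH7, and TTN and MB, could not be paired with an identifier and were not analysed here. Neuron markers summed to 3452 to 9515 CPM over 8 genes, with none at 0 in any library. The myelin gene MBP alone reached 1314 to 8483 CPM. The label of muscle may therefore be incomplete or wrong for these libraries, and the muscle marker level used below is the level of those 14 genes, not a measure of muscle tissue. Levels below are those of libraries that hold transcripts of several tissues, and in such bulk samples fewer cells of a type and less RNA per cell cannot be told apart.

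The level of the subunits differed widely although the assembled particle holds each of them in equal number. In a 3′ protocol 1 read stands for 1 transcript end, so CPM needs no correction for length between genes. A gene whose 3′ end is not in the annotation loses reads, however, and with 16.4 to 29.9% of reads outside features this limits every comparison of levels between members; its part in the spans below was not tested. In the alpha ring PSMA7 stood far above the rest, at 404.6 ± 76.0 CPM (SD, n = 34; 299.9 to 545.8), and it was above every other alpha gene in 34 of 34 libraries. PSMA4 followed at 84.2 ± 14.4 CPM (54.9 to 116.5) and PSMA3 at 76.9 ± 12.2 CPM (51.6 to 103.1), and these 2 neighbours were not separated, since PSMA4 was the higher in 20 of 34 libraries. PSMA2 was at 67.2 ± 24.1 CPM (23.0 to 125.9), PSMA1 at 37.4 ± 10.5 CPM (13.03 to 65.0) and PSMA5 at 26.7 ± 11.0 CPM (5.13 to 61.1). The means of the 6 alpha genes spanned 15.1-fold.

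Among the constitutive beta genes PSMB1 was highest, at 199.96 ± 32.5 CPM (108.3 to 267.4), followed by PSMB4 at 95.6 ± 20.3 CPM (49.3 to 141.9). PSMB2 was at 26.3 ± 10.0 CPM (7.24 to 46.1) and PSMB3 at 6.39 ± 3.17 CPM (1.32 to 14.2). PSMB7, which carries the trypsin-like cutting site, was nearly undetected, at 0.80 ± 0.92 CPM with a median of 2 counts per library. It was at 0 in 8 libraries, where a floor of 3 counts allows up to 0.151 to 2.24 CPM depending on depth, and its highest values were 3.06 CPM (increased cholecalciferol replicate 7) and 47 counts (standard cholecalciferol replicate 6). By diet its lowest, median and highest levels were 0, 0.21 and 2.56 CPM on standard cholecalciferol and 0, 0.89 and 3.06 CPM on increased cholecalciferol. They were 0, 0.71 and 2.81 CPM in the combination and 0, 0.16 and 2.03 CPM on 25(OH)D, so that all 4 diets overlapped. The means of these 5 beta genes spanned 251-fold. Whether the deposited counts hold all reads of PSMB7 was not tested.

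The interferon-inducible subunits were low. PSMB10 was at 23.7 ± 6.1 CPM (11.5 to 42.4), PSMB9 at 6.89 ± 2.29 CPM (1.72 to 10.5) and PSMB8 at 1.69 ± 1.02 CPM (0 to 4.52). PSMB8 was at 0 in 1 library, increased cholecalciferol, where 3 counts allow up to 0.706 CPM. The 3 genes together reached 0.10 ± 0.03 of the summed constitutive beta level, with a range of 0.066 to 0.206 over the libraries. The catalytic partners PSMB5 and PSMB6 are missing from that sum. PSMB8 and PSMB9 lie close together in the pig genome, separated by the peptide transporter gene TAP1, per the RefSeq gene order (Sscrofa11.1). Over 34 libraries their log2 CPM had a Pearson's r of 0.18 and a Spearman's rho of 0.22, at counts too low to read more from it.

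The ATPases were the most even ring. PSMC5 was at 188.6 ± 31.2 CPM (140.4 to 251.8), PSMC3 at 128.2 ± 25.4 CPM (85.3 to 171.9) and PSMC6 at 125.6 ± 28.9 CPM (56.1 to 183.9). PSMC1 was at 55.5 ± 16.7 CPM (24.4 to 92.0), PSMC4 at 54.7 ± 11.95 CPM (28.5 to 84.1) and PSMC2 at 51.1 ± 12.4 CPM (28.3 to 76.1). The 6 genes thus formed an upper and a lower trio, with PSMC6 above PSMC1 in 34 of 34 libraries. Within the lower trio the order was not fixed, since PSMC1 was above PSMC4 in 17 of 34 libraries. The means of the ring spanned 3.69-fold.

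In the lid and the non-ATPase base the scaffold subunits led. PSMD1 was at 253.1 ± 31.8 CPM (189.2 to 313.6) and PSMD2 at 194.3 ± 33.5 CPM (137.5 to 266.5), both large base subunits. PSMD7, the partner of PSMD14, was at 137.0 ± 23.8 CPM (97.8 to 182.1) and PSMD11 at 125.6 ± 30.7 CPM (54.0 to 188.7). PSMD8 was at 95.5 ± 15.0 CPM (65.3 to 127.4), PSMD3 at 86.9 ± 19.8 CPM (51.8 to 126.9), PSMD13 at 81.9 ± 12.7 CPM (55.1 to 105.2) and PSMD12 at 49.4 ± 10.0 CPM (29.5 to 70.4). The lowest 3 were PSMD6 at 38.9 ± 9.8 CPM (17.1 to 61.0), the deubiquitinase PSMD14 at 33.2 ± 8.8 CPM (12.2 to 54.9) and the ubiquitin receptor PSMD4 at 6.87 ± 2.44 CPM (2.26 to 11.6). The 11 means spanned 36.8-fold. The level of PSMD4 by diet was 2.26, 6.52 and 9.92 CPM (lowest, median, highest) on standard cholecalciferol, 2.94, 7.06 and 11.4 CPM on increased cholecalciferol, 3.84, 8.07 and 11.6 CPM in the combination and 3.43, 5.84 and 8.73 CPM on 25(OH)D.

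**Figure D1:**
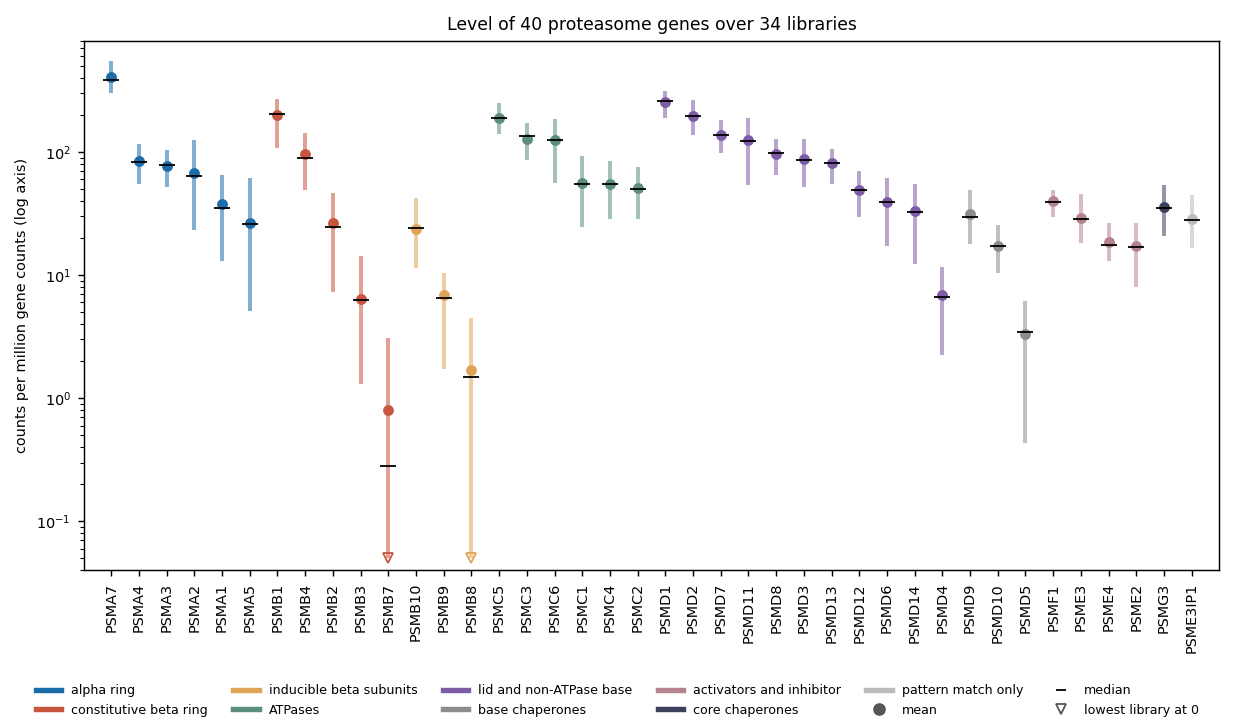
Level of each of the 40 members in CPM (log axis), grouped by place in the particle. Vertical bars run from the lowest to the highest of 34 libraries, dots are means, dashes medians, and open triangles mark genes at 0 in at least 1 library; PSMA7 sits at the top (mean 404.6 CPM) and PSMB7 at the bottom (mean 0.80 CPM).

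The assembly chaperones and regulators were of moderate level. Of the base chaperones, which hold ATPases before the base is complete, PSMD9 was at 31.1 ± 8.0 CPM (17.9 to 49.2), PSMD10 at 17.4 ± 3.8 CPM (10.5 to 25.6) and PSMD5 at 3.33 ± 1.64 CPM (0.431 to 6.11). PSMG3, a chaperone of alpha ring assembly, was at 35.7 ± 8.1 CPM (20.6 to 53.4). PSMF1, an inhibitor of the core, was at 39.6 ± 4.8 CPM (29.7 to 48.9). Of the activators, PSME3, the nuclear form, was at 28.9 ± 6.0 CPM (18.1 to 45.7), PSME4, which opens the core without ATP, at 18.5 ± 3.5 CPM (12.9 to 26.5) and PSME2 at 17.1 ± 4.6 CPM (7.95 to 26.4). PSME1, which forms a ring together with PSME2 and lies near it in the genome, was only at 0.70 ± 0.59 CPM (0 to 2.43). PSME3IP1 was at 28.7 ± 6.0 CPM (16.5 to 44.7).

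The parts of the particle were also compared by levels summed over their genes. PSMA6, PSMB5 and PSMB6 are missing from these sums and PSMB7 was nearly undetected. PSMA7 alone held 404.6 of the 697.0 CPM of the alpha ring, so it weighs heavily in the ratios to that ring and to the core. The ratios were not set against those of other groups of genes. The ratio of inducible to constitutive beta genes, given above, ran from 0.066 to 0.206. The ratio of the summed 19S level to the summed 20S level was 1.62 ± 0.10 (SD, n = 34), with a range of 1.44 to 1.89. Its mean was 1.60 on standard cholecalciferol, 1.59 on increased cholecalciferol, 1.63 in the combination and 1.66 on 25(OH)D, and the SD within a diet was 0.0747 to 0.152. The ATPases reached 0.87 ± 0.07 of the alpha ring (0.717 to 1.02), and the lid and base 1.84 ± 0.18 times the ATPases (1.49 to 2.22). For none of these ratios did the diets separate beyond the spread between libraries.

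Most single members varied less between libraries than the median of all genes tested. The SD of log2 CPM (TMM-scaled) had a median of 0.29 over the 39 members that edgeR's expression filter kept, against 0.49 over all 13974 genes it kept, and 32 of 39 members lay below the latter. PSMB7 did not pass the filter and is in none of the tests. The members are also more abundant, with a median mean level of 5.61 log2 CPM against 3.78 over all genes, and abundant genes vary less in counts. Between 4.63 and 6.56 log2 CPM, the middle of the members' range, the median SD was 0.29 for the 19 members there and 0.33 for 3575 genes, and 12 of the 19 lay below it. The smallest SDs were those of PSMD1 (0.15), PSMF1 (0.17), PSMB1 (0.18), PSMD2 (0.18) and PSMD8 (0.20). The largest were those of PSMD5 (0.83), PSMB8 (0.74), PSMB3 (0.73), PSMA5 (0.63) and PSMB9 (0.58), of which all but PSMA5 were below 7 CPM.

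The members did not vary as 1 unit. Over 741 pairs of members the median Pearson's r of log2 CPM was 0.02, against -0.0003 over all pairs of genes tested, and 0.20 against 0.07 when libraries were scaled by total counts in place of TMM. Pairs above 0.5 made up 9.18% of member pairs (4.01% over all genes), and pairs below -0.5 made up 4.18% (3.64% over all genes). Among the strong pairs, 2 sets were picked by eye from the matrix. PSMA1, PSMA2, PSMA5, PSMB2, PSMC2, PSMD14 and PSMD5 tended to be high in the same libraries, and PSMC3, PSMC5, PSMD7 and PSMA7 tended to be high where those were low, although some pairs across the sets were weak (PSMA7 with PSMB2, r of -0.33). Other strong pairs lay outside both sets, such as PSMD11 with PSMG3 (r of -0.71) and PSMD8 with PSMD13 (0.67). PSMA1 and PSMA5 had an r of 0.86 (rho 0.78), and PSMC3 and PSMC5 an r of 0.84 (rho 0.78). PSMC5 and PSMD14, which share the 19S particle, had an r of -0.75 (rho -0.68). Without the 2 libraries farthest from the median of the first gene these values were 0.76, 0.81 and -0.65, and over file numbers 1 to 24 alone they were 0.85, 0.87 and -0.82. Each set mixes alpha, ATPase and lid genes. These pairs were picked from the 741 for their size and are given without a test, and all points share the library's depth and scaling.

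**Figure D2:**
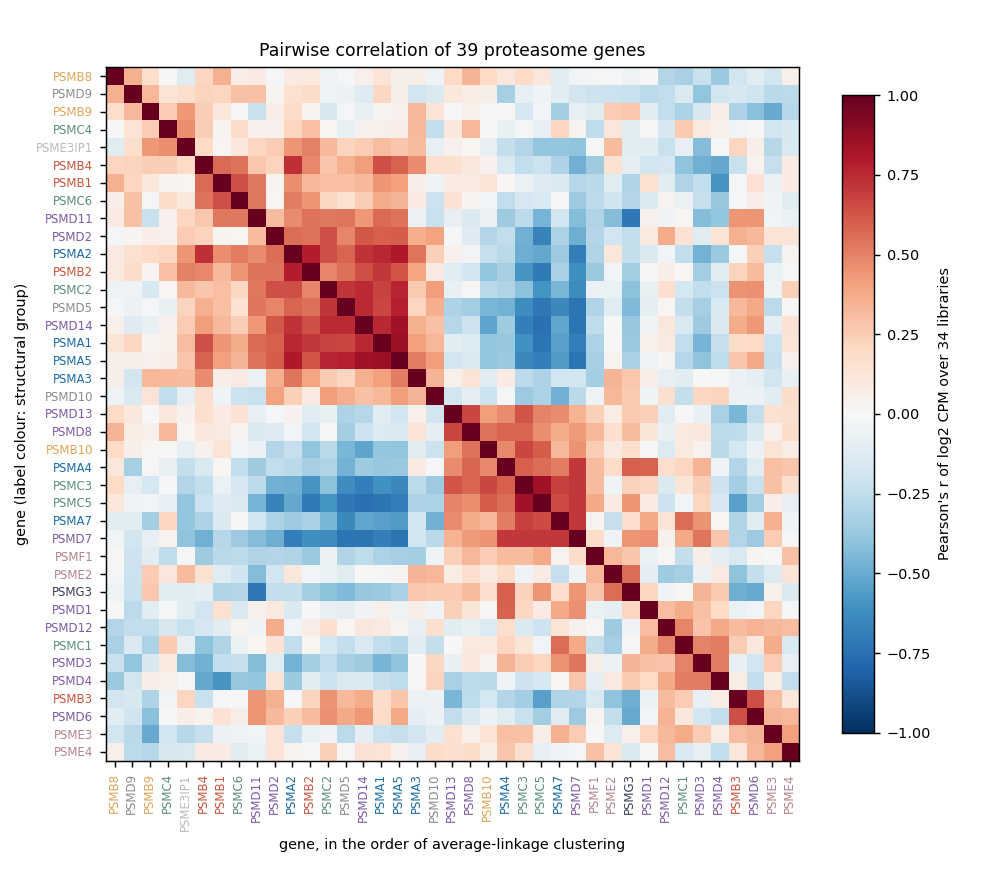
Pearson's r of TMM-scaled log2 CPM over 34 libraries for each pair of 39 members, ordered by average-linkage clustering, with label colours for the structural groups. A red block with PSMA1, PSMA5 and PSMD14 and a red block with PSMC3, PSMC5 and PSMD7 are blue against each other, as in the r of -0.75 of PSMC5 with PSMD14.

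The share of reads outside annotated features, which ranged from 16.4 to 29.9%, was related to the members next. In edgeR's quasi-likelihood test with diet and sex in the model, 8 of 39 members fell with this share and 0 rose, at a Benjamini-Hochberg adjusted p below 0.05; of all genes tested, 12.7% were called, 5.7% lower and 6.95% higher. An unadjusted p below 0.05 was reached by 11 of 39 members (29.8% of all genes). PSMA5 fell by 0.10 on the log2 scale per percentage point (SE 0.023, adjusted p = 0.00445) and PSMA2 fell by 0.08 (SE 0.0185, adjusted p = 0.00522). PSMA3, PSMC2, PSMD2, PSMB2, PSMD14 and PSMA1 fell by 0.03 to 0.06. Fewer of the 8 calls were made under other settings: 3 with the run of file numbers in the model, 2 without file numbers 30 to 34, and 0 in file numbers 1 to 24 alone. This relation was chosen after the values were seen.

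The diets were compared in pairs to ask whether the dose or the form of vitamin D changed transcript levels. No member passed an adjusted p of 0.05 in any of the 6 pairs by edgeR, by DESeq2 or by limma-voom, and neither did any other of the 13974 genes by edgeR (0% called in each pair). At an unadjusted p below 0.05, 4 of 39 members differed between increased and standard cholecalciferol (7.77% of all genes), 2 between the combination and standard (4.34%), and 1 between 25(OH)D and standard (3.23%). The same count was 2 between the combination and increased cholecalciferol (4.14%), 8 between 25(OH)D and increased cholecalciferol (12%) and 3 between 25(OH)D and the combination (7.57%). In the test of any difference among the 4 diets 0 members passed and 2 had an unadjusted p below 0.05 (6.71% of all genes). The comparisons share their diets, so their counts are not independent.

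The members' fold changes centred on 0. Against the standard diet the median log2 fold change was -0.03 (increased cholecalciferol), 0.02 (combination) and -0.03 (25(OH)D), where the medians over all genes were 0.01, -0.003 and -0.01. By part of the particle, the alpha ring had a median of 0.05, 0.02 and -0.19 in these 3 comparisons, the constitutive beta genes 0.19, 0.17 and -0.11, the ATPases -0.10, 0.02 and -0.01, and the lid and base -0.06, 0.12 and -0.03. The precision allowed for small differences only in part. For 25(OH)D against standard the 95% interval of 37 of 39 members lay within a 2-fold change in either direction, and that of 30 within 1.5-fold. Over the 6 pairs these counts were 35 to 37 and 28 to 31.

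**Figure D3:**
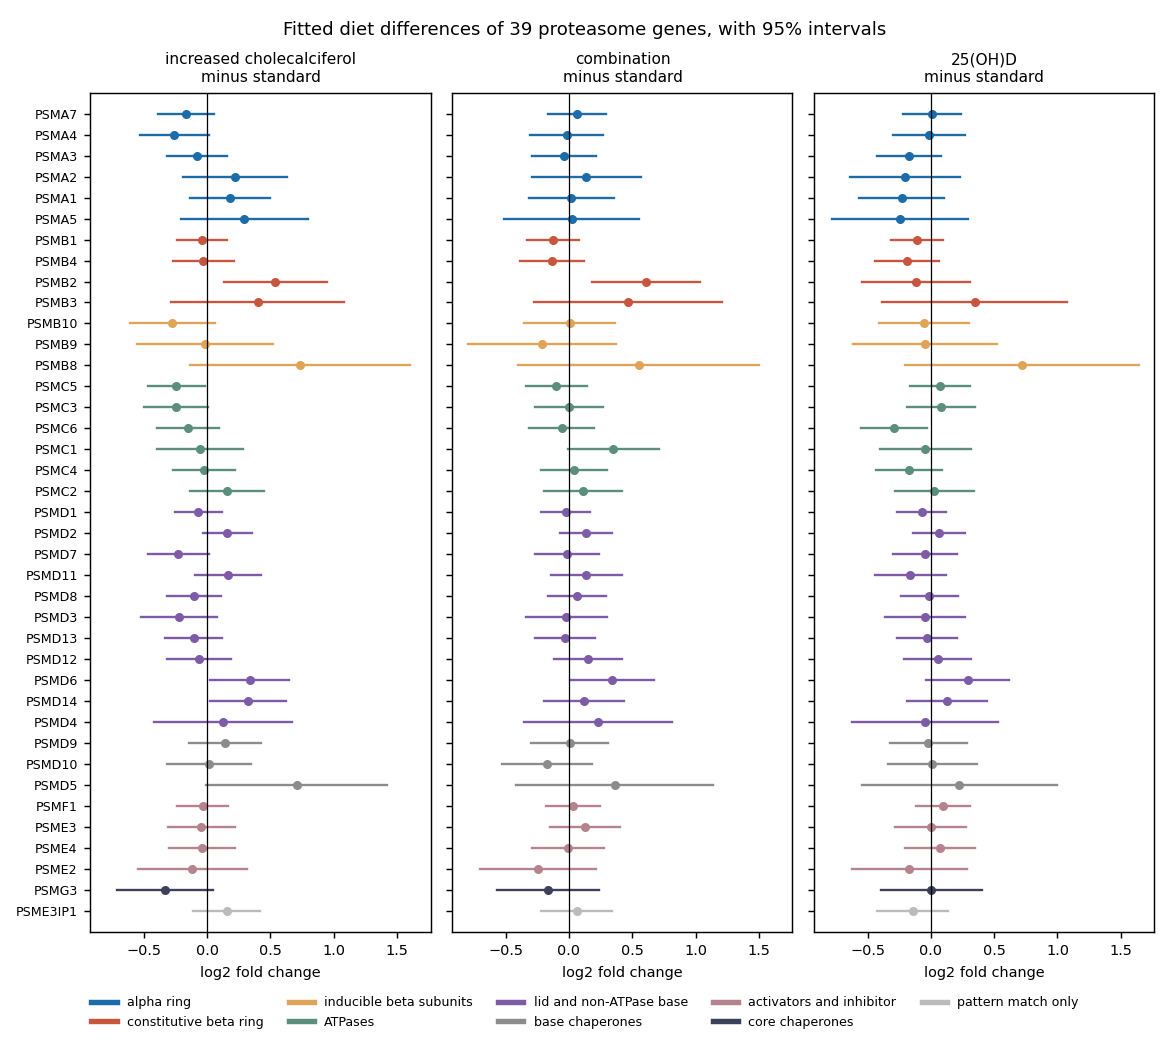
Log2 fold change of 39 members on 3 diets against the standard cholecalciferol diet, with 95% intervals from edgeR, coloured by structural group. Most points lie close to 0, with PSMB2 at 0.54 and 0.61 for increased cholecalciferol and the combination and at -0.12 for 25(OH)D; the 3 panels share the same 8 control libraries.

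PSMB2, a beta subunit of the core without a cutting site, had the smallest unadjusted p of the members in 4 of the 6 pairs. Its lowest, median and highest levels were 14.8, 18.9 and 35.2 CPM on standard cholecalciferol and 7.24, 17.0 and 35.9 CPM on 25(OH)D. They were 18.7, 32.7 and 46.1 CPM on increased cholecalciferol and 21.2, 32.3 and 46.0 CPM in the combination. The diets overlapped, yet the medians on the 2 diets with the larger total dose lay above 7 of the 8 libraries of either other diet. The log2 fold change was 0.54 (SE 0.20, unadjusted p = 0.0102, adjusted p = 0.623) for increased cholecalciferol against standard and 0.61 (SE 0.21, unadjusted p = 0.0068, adjusted p = 0.999) for the combination against standard. It was -0.66 (SE 0.20, unadjusted p = 0.00249, adjusted p = 0.306) for 25(OH)D against increased cholecalciferol and -0.73 (SE 0.22, unadjusted p = 0.00179, adjusted p = 0.653) for 25(OH)D against the combination. In the test of any diet difference PSMB2 ranked 19 of 13974 genes (unadjusted p = 0.00153, adjusted p = 0.731).

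Grouping the diets by total dose was done after these values were seen. The increased total dose (increased cholecalciferol and combination, 18 libraries) gave 31.98 ± 8.24 CPM of PSMB2, and the standard total dose (standard cholecalciferol and 25(OH)D, 16 libraries) gave 19.9 ± 7.9 CPM. Of the 16 standard-dose libraries 7 lay below the lowest increased-dose library, and 17 of 18 increased-dose libraries lay above the standard-dose median. The log2 fold change was 0.63 (SE 0.14, 95% interval 0.34 to 0.92, unadjusted p = 8.8e-05), the second smallest p of 13974 genes, and the edgeR adjusted p was 0.251, so it did not pass. No other member or gene passed either (0% called), and 3 of 39 members had an unadjusted p below 0.05 (12.7% of all genes): PSMB2, PSMC5 (log2 fold change -0.21, SE 0.081) and PSMD11 (0.23, SE 0.094).

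Means of PSMB2 were higher at the increased dose in each run of file numbers and in both sexes. However, file numbers 1 to 12 are all standard dose and 13 to 24 all increased dose. Dose and file order therefore cannot be told apart in file numbers 1 to 24. In file numbers 1 to 24 the means were 32.7 ± 9.2 CPM (n = 12, increased dose) and 19.5 ± 7.8 CPM (n = 12, standard dose). In file numbers 25 to 29 they were 35.2 (n = 2) and 23.8 CPM (n = 3). The doses overlapped there, at 31.7 and 38.7 CPM against 17.4, 18.7 and 35.2 CPM. File numbers 30 to 34 hold 1 standard-dose library, at 14.2 CPM, beside 4 increased-dose libraries with a mean of 28.1 CPM. In castrated males the means were 32.5 ± 10.5 CPM (n = 8) and 14.8 ± 4.3 CPM (n = 8), and in females 31.6 ± 6.5 CPM (n = 10) and 25.1 ± 7.5 CPM (n = 8). The test of a diet by sex interaction gave PSMB2 an unadjusted p of 0.0646 and an adjusted p of 1. The share of reads outside annotated features, with which PSMB2 fell, was 21.6% at the increased and 23.6% at the standard dose (p = 0.123, permutation test, two-sided). With that share in the model the PSMB2 difference was 0.49 (adjusted p = 0.413); over the 9 other settings tried, with all libraries or without a run, the adjusted p was 0.0536 (DESeq2) to 0.413. The mitochondrial share of counts was 20.9 and 25.55% (p = 0.0219, adjusted over 14 such tests 0.181), and its part in the result was not tested.

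**Figure D4:**
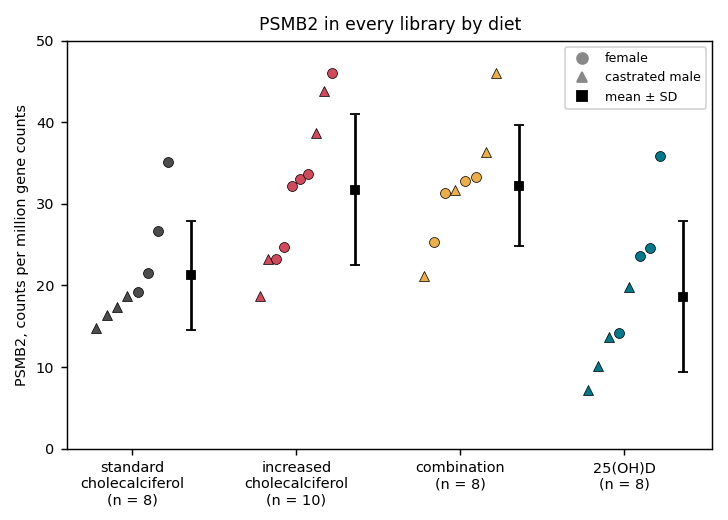
PSMB2 in CPM for each of the 34 libraries by diet, with females as circles and castrated males as triangles, and squares with bars for the mean ± SD. The increased cholecalciferol and combination libraries range from 18.7 to 46.1 CPM and the other 16 from 7.24 to 35.9 CPM.

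The other members with small p-values were scattered over the particle. Against the standard diet, increased cholecalciferol gave PSMD6 0.34 (SE 0.15), PSMD14 0.33 (SE 0.15), PSMC5 -0.24 (SE 0.11) and PSMD5 0.71 (SE 0.35) on the log2 scale. The combination gave PSMD6 0.34 (SE 0.16), PSMC1 0.35 (SE 0.18), PSMD2 0.13 (SE 0.10) and PSMB3 0.46 (SE 0.37). For 25(OH)D the 5 smallest p-values were those of PSMC6 at -0.29 (SE 0.13), PSMD6 at 0.29 (SE 0.16), PSMB8 at 0.72 (SE 0.46), PSMB4 at -0.19 (SE 0.13) and PSMA1 at -0.23 (SE 0.17). The adjusted p-values of these members by edgeR were 0.623 or more.

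Between the supplemented diets the values were of like size. The combination against increased cholecalciferol gave PSMC1 0.40 (SE 0.17), PSMA7 0.23 (SE 0.11), PSMC3 0.25 (SE 0.13), PSMD7 0.21 (SE 0.12) and PSMA4 0.24 (SE 0.14). In file numbers 1 to 24 alone these values were 0.14, 0.02, 0.05, -0.06 and 0.02 in the same order, and the 5 shallow libraries of file numbers 30 to 34 hold 4 of the 8 combination libraries. For 25(OH)D against increased cholecalciferol, PSMC5 at 0.32 (SE 0.11) and PSMC3 at 0.32 (SE 0.13) were positive. PSMA1 at -0.42 (SE 0.16), PSMD11 at -0.33 (SE 0.13), PSME3IP1 at -0.30 (SE 0.13), PSMA5 at -0.54 (SE 0.25) and PSMA2 at -0.43 (SE 0.20) were negative. The share of reads outside annotated features was 24.2% on 25(OH)D and 21.3% on increased cholecalciferol (p = 0.102, permutation test), and its part in these values was not tested. For 25(OH)D against the combination, PSMC1 at -0.39 (SE 0.18), PSMD11 at -0.30 (SE 0.14), PSMC6 at -0.23 (SE 0.13) and PSMC4 at -0.21 (SE 0.13) followed PSMB2.

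The levels behind these values overlapped between all diets. PSMA7 had a lowest, median and highest level of 299.9, 381.8 and 545.8 CPM on standard cholecalciferol, 301.5, 369.8 and 505.4 CPM on increased cholecalciferol, 335.3, 469.2 and 539.7 CPM in the combination and 313.8, 390.2 and 508.1 CPM on 25(OH)D. The lid subunit PSMD11 had 79.3, 116.2 and 166.8 CPM, 112.96, 129.996 and 188.7 CPM, 110.6, 125.3 and 185.0 CPM, and 54.0, 97.2 and 160.0 CPM in the same order. The deubiquitinase PSMD14 had 20.8, 29.5 and 37.5 CPM, 26.3, 39.9 and 54.9 CPM, 24.8, 31.6 and 39.8 CPM, and 12.2, 33.0 and 46.1 CPM. The highest median of PSMD14 was thus on increased cholecalciferol and that of PSMA7 in the combination. PSMA7 also rose with a difference of brain region markers, given below, whose median was highest in the combination. The part of that difference in the diet values of PSMA7 was not tested. The ATPase PSMC4 had 37.9, 53.6 and 84.1 CPM, 41.9, 54.9 and 70.4 CPM, 41.4, 60.3 and 72.0 CPM, and 28.5, 47.2 and 60.5 CPM.

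The immunoproteasome subunits and activators also overlapped. In the order standard, increased cholecalciferol, combination and 25(OH)D, the median of PSMB8 was 1.15, 1.59, 1.67 and 1.68 CPM, within ranges of 0.705 to 1.74, 0 to 4.52, 0.744 to 3.26 and 1.03 to 2.80 CPM. The median of PSMB9 was 6.51, 6.72, 5.43 and 6.66 CPM, within 5.40 to 9.69, 5.16 to 9.76, 1.86 to 10.5 and 1.72 to 10.3 CPM. The median of PSMB10 was 25.0, 20.4, 25.4 and 24.2 CPM, within 20.2 to 28.8, 14.7 to 30.6, 16.3 to 42.4 and 11.5 to 30.7 CPM. No diet stood apart for any of the 3. For PSME2 the medians were 17.6, 18.2, 15.4 and 16.0 CPM (14.2 to 24.0, 11.4 to 26.4, 10.9 to 24.9 and 7.95 to 23.3 CPM). For PSME3 they were 28.4, 29.5, 29.2 and 26.3 CPM (23.5 to 31.96, 18.1 to 35.2, 23.0 to 45.7 and 18.1 to 39.6 CPM). For PSME4 they were 17.5, 16.6, 18.9 and 17.0 CPM (14.1 to 22.5, 12.9 to 26.5, 14.2 to 24.5 and 14.3 to 26.04 CPM). PSME1 stayed at medians of 0.55, 0.77, 0.55 and 0.35 CPM, with a highest value of 2.43 CPM.

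The inhibitor and the chaperones showed the same overlap. PSMF1 had medians of 39.1, 36.8, 42.1 and 40.2 CPM in that order (29.7 to 45.8, 33.1 to 48.9, 35.0 to 45.2 and 31.5 to 46.8 CPM). PSMG3 had 35.5, 30.8, 36.3 and 36.8 CPM (32.3 to 50.2, 24.5 to 46.3, 23.9 to 51.4 and 20.6 to 53.4 CPM). PSMD5 had 2.30, 4.65, 3.53 and 3.27 CPM (0.755 to 4.85, 2.11 to 6.11, 0.476 to 5.21 and 0.431 to 5.14 CPM). PSMD9 had 31.4, 30.1, 29.9 and 25.8 CPM (20.9 to 40.3, 21.2 to 49.2, 17.9 to 44.7 and 23.0 to 41.7 CPM). PSMD10 had 17.4, 18.3, 14.4 and 16.1 CPM (10.5 to 24.7, 12.6 to 24.4, 12.7 to 25.6 and 13.4 to 20.9 CPM).

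Sex made no called difference in any member. Of all genes 0.0787% were called between females and castrated males, none of them a member, and 3 of 39 members had an unadjusted p below 0.05 (6.58% of all genes). In females minus castrated males the log2 fold change was 0.32 for PSMD14 (SE 0.11, adjusted p = 0.678), 0.33 for PSMB2 (SE 0.15), 0.32 for PSMA2 (SE 0.15), 0.17 for PSMC6 (SE 0.088) and 0.50 for PSMD5 (SE 0.26). In the test of a diet by sex interaction 0 members had an adjusted p below 0.05 and 0 an unadjusted one (2.75% of all genes). The smallest unadjusted p-values after that of PSMB2 were 0.0675 for PSMF1, 0.088 for PSMA2, 0.104 for PSMB4 and 0.223 for PSMD9.

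Members were next related to the mean log2 CPM of tissue marker genes in each library, with diet and sex in the edgeR model. With the level of 14 muscle markers, 2 of 39 members rose and 0 fell (adjusted p below 0.05; 0.945% of all genes called, 0.937% higher and 0.00716% lower), and 3 had an unadjusted p below 0.05 (5.45% of all genes). PSMB3 rose by 1.16 on the log2 scale per log2 unit of the muscle level (SE 0.22, adjusted p = 0.00145). In the 5 libraries with the least muscle marker level PSMB3 was at 1.32 to 4.72 CPM, and in the 5 with the most it was at 7.07 to 14.2 CPM, with no overlap. Without the 2 libraries farthest from the median marker level the slope was 1.03 and its adjusted p 0.0787, so the call rests on them. The 5 shallow libraries of file numbers 30 to 34 had a summed muscle marker level of 7007 ± 924 CPM, against 3761 ± 1769 CPM over all 34, and the PSMB3 slope without these 5 was 1.36. The lid subunit PSMD6 rose by 0.44 (SE 0.11, adjusted p = 0.0261), from 17.1 to 32.8 CPM at the low end to 43.0 to 61.0 CPM at the high end. That call was lost in file numbers 1 to 24 alone (0.51, adjusted p = 0.347) and on leaving out 25(OH)D replicate 1 (0.36, adjusted p = 0.334), 25(OH)D replicate 3 or 4, or standard cholecalciferol replicate 1. PSME3 at 0.29 (SE 0.099), PSMB2 at -0.34 (SE 0.17) and PSMG3 at -0.30 (SE 0.16) had the next smallest p-values and were not called. PSMB3 and PSMD6 had an r of 0.65 (rho 0.59) with each other over the 34 libraries and 0.54 without the 2 farthest.

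With the level of 11 microglia and macrophage markers, all above 0 in each library and summing to 116 to 440.8 CPM, 3 of 39 members rose and 1 fell (30.9% of all genes called). PSME2, an interferon-inducible activator subunit, rose by 0.61 per log2 unit (SE 0.12, adjusted p = 0.000286). It was at 10.9 to 16.2 CPM in the 5 libraries with the lowest marker level and at 17.0 to 24.0 CPM in the 5 with the highest. PSMG3 rose by 0.39 (SE 0.13, adjusted p = 0.0155) and PSMD10 by 0.33 (SE 0.11, adjusted p = 0.0155), and PSMA7 fell by 0.24 (SE 0.068, adjusted p = 0.00736). PSMC1 at -0.25 (SE 0.12, adjusted p = 0.114) was not called. With the brain region markers below in the model as well, PSME2 alone was called (0.64, adjusted p = 0.0269). The share of members called was 10.3%, below that of all genes.

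The libraries also differed in their levels of brain region markers. The difference of the mean log2 CPM of 9 cerebellum and 8 forebrain markers put 20 libraries between 1.18 and 2.42 and 14 between 3.56 and 6.83. A slope on this difference mostly compares these 2 clusters. The median difference was 3.79 in the combination, against 1.96 on standard cholecalciferol, 2.16 on increased cholecalciferol and 1.92 on 25(OH)D. The diets were thus unevenly spread over the clusters, and the part of this in the diet values above was not tested. On the slope 12.8% of members (5 of 39) were called, against 38.3% of all genes. PSMG3 fell by 0.14 per log2 unit (SE 0.033, adjusted p = 0.000669) and PSME2 fell by 0.12 (SE 0.041, adjusted p = 0.0211). PSMA7 rose by 0.06 (SE 0.020, adjusted p = 0.019), PSMD11 by 0.07 (SE 0.024, adjusted p = 0.0306) and PSMC6 by 0.06 (SE 0.023, adjusted p = 0.0484). PSMA7 was at 299.9 to 404.2 CPM in the 20 libraries with the smaller difference and at 361.3 to 545.8 CPM in the other 14. Within the clusters its r with the difference was -0.15 and 0.07, whereas that of PSMC6 was 0.07 and 0.69. With the microglia level in the model 0 of the 5 were called, and the PSME2 slope was 0.01.

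**Figure D5:**
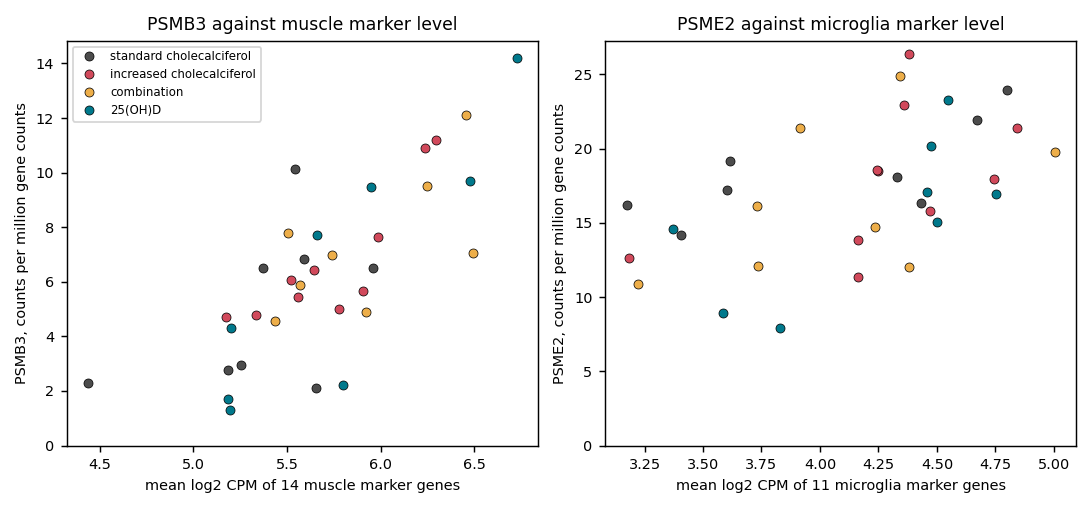
PSMB3 against the mean log2 CPM of 14 muscle marker genes (left) and PSME2 against that of 11 microglia marker genes (right), with 1 point per library coloured by diet and both genes in CPM. PSMB3 climbs from 1.32 to 14.2 CPM with the muscle level, and PSME2 ranges from 7.95 to 26.4 CPM.

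The rest of the ubiquitin pathway was read from a list of 51 genes, of which 46 had a symbol in the files and 45 were tested. In the 6 diet pairs 0 of 45 passed. At an unadjusted p below 0.05 the count was 3 for increased cholecalciferol against standard (7.77% of all genes), 2 for the combination against standard (4.34%) and 0 for 25(OH)D against standard (3.23%). It was 1 for the combination against increased cholecalciferol (4.14%), 7 for 25(OH)D against increased cholecalciferol (12%) and 3 for 25(OH)D against the combination (7.57%). The list's median log2 fold change was -0.03 to -0.001. Ubiquitin itself was abundant, with UBB at 1366 ± 167 CPM. The segregase VCP was at 173.2 ± 25.0 CPM, and the proteasome-bound deubiquitinases USP14 and UCHL5 were at 78.8 ± 17.7 and 118.4 ± 16.1 CPM. POMP, the maturation factor of the core, was at 79.7 ± 14.0 CPM, close to PSMA3. The ubiquitin receptor ADRM1 was at 0.43 ± 0.49 CPM, as low as PSMB7 and PSME1, and SEM1 could not be paired. NFE2L1, the transcription factor that raises proteasome genes when the proteasome is blocked, was at 123.7 ± 17.2 CPM, and its relative NFE2L2 at 28.5 ± 10.3 CPM. NFE2L2 differed by 0.44 (SE 0.20, unadjusted p = 0.0366) for increased cholecalciferol and by 0.47 (SE 0.21, unadjusted p = 0.0343) for the combination against standard, with adjusted p-values of 0.628 and 0.999.

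The muscle ubiquitin ligases FBXO32 and TRIM63, which mark atrophy, were at 139.7 ± 48.7 and 11.99 ± 7.39 CPM. Neither was called between diets. FBXO32 had the smallest p of the list for sex (females minus castrated males -0.48, SE 0.15, adjusted p = 0.612). On the muscle marker level 1 of the 45 rose and 0 fell, where 0.937% of all genes rose and 0.00716% fell. The 1 gene was the ubiquitin shuttle UBQLN2 (1.46, SE 0.37, adjusted p = 0.0419), at 1.33 ± 1.34 CPM and at 0 in 1 library. On the microglia level 10 of 45 were called, a smaller share than the 30.9% of all genes: 3 rose, FBXO32 (0.54, SE 0.13), NFE2L1 (0.27, SE 0.075) and POMP (0.28, SE 0.10), and 7 fell, with TRIM63 first (-0.99, SE 0.17, adjusted p = 5.1e-05). On the cerebellum minus forebrain difference 11 of 45 were called, again a smaller share than that of all genes (38.3%): 6 rose, with TRIM63 again first (0.35, SE 0.035), and 5 fell, POMP among them (-0.12, SE 0.025, adjusted p = 0.00018). PSMG3, PSME2 and POMP thus rose with the microglia level and fell with the cerebellum minus forebrain difference. These 2 measures are not independent. The 5 libraries with the lowest microglia level were also those with the largest cerebellum minus forebrain difference. On the share of reads outside features TRIM63 rose by 0.10 (SE 0.033), and the ligase subunits SKP1 and RBX1 fell by 0.07 and by 0.05.

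Of 18 antigen presentation genes, which work downstream of the immunoproteasome, 16 had a symbol and 14 were tested, and 0 passed in any diet pair. The peptide transporter genes TAP1 and TAP2 were at 10.9 ± 3.6 and 7.11 ± 3.15 CPM. On the microglia level, where 30.9% of all genes were called, 4 of 14 rose and 0 fell, a share near that background: TAP2 (0.71, SE 0.18), IRF1 (0.69, SE 0.20), MX1 (0.50, SE 0.17) and ERAP2 (0.78, SE 0.27), with adjusted p-values of 0.00247 to 0.0249. PSMB8, PSMB9 and PSMB10 were not among the members called on that slope, although PSMB9 had a value of 0.38 (SE 0.19, adjusted p = 0.119).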

How the data were processed

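The authors deposited 1 table of raw counts per library (34 tables), made from QuantSeq 3′ FWD libraries of Trizol-extracted RNA, per the labels' protocols. FastQC, TopHat, HTSeq and DESeq2 are named in the submitters' processing notes, without versions. Genome build and strand setting were not given in the sources used here. Rows that name no gene were kept out of library sizes: reads outside features were 16.4 to 29.9%, ambiguous reads 3.63 to 4.68% and not uniquely aligned reads 11.2 to 20.7%.

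Symbols came from a table of gene names. Levels are CPM, the count scaled by the library's total of gene counts. Tests used edgeR 4.0.16 in R 4.3.3 (TMM scaling, expression filter by diet, quasi-likelihood F-test, diet and sex in the model, all 34 libraries, Benjamini-Hochberg adjustment over 13974 genes, called at an adjusted p below 0.05). Alternatives were DESeq2 1.42.0, limma-voom 3.58.1, other scalings, filters, terms and subsets of libraries. The design text counts 1 animal per library; replicates were numbered in accession order, and these numbers pair no libraries. Named in each comparison were the members past the threshold and, below 10 of these, the 5 with the smallest p; for 25(OH)D against increased cholecalciferol all 8 with an unadjusted p below 0.05 were named after their values were seen. Members and gene lists were chosen with earlier results of these data known. On simulated counts for 25(OH)D against standard (13642 genes), 16.3, 51.6 and 88% of genes changed 1.5-, 2- and 4-fold were recovered. The changed genes numbered 49, 95 and 50 in that order, and 104 genes were called. The real comparison called 0 genes, so these shares do not give the recovery of a single changed member, which could be lower. Floors and intervals of counts cover counting error only, since no molecular identifiers are stated.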

Additional observations from a re-analysis of the deposited data

Results flagged for a closer look

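In 5 of the 160 sets of 1 member in 1 diet, 1 library lay far from the rest by Dixon's test, where chance gives about 1 in 20 sets. PSMA2, an alpha subunit, was at 125.861 CPM in combination replicate 1, against 79.674 CPM in the next library of that diet. PSMA5 was at 61.135 CPM in increased cholecalciferol replicate 7, against 39.747 CPM. The ATPase PSMC1 was at 80.57 CPM in 25(OH)D replicate 8, against 55.606 CPM, and PSMC2 at 69.796 CPM in standard cholecalciferol replicate 6, against 51.355 CPM. The chaperone PSMD10 was at 25.626 CPM in combination replicate 3, against 18.603 CPM. All 5 were the highest library of their diet, and each was a different library.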

How the results depend on the processing

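No member was called between diets, sexes or total doses under any setting tried. The 2 members called on the muscle marker level became 1 with no filter on low counts, with the run of file numbers in the model, in file numbers 1 to 24 alone and without file numbers 30 to 34, and 0 without the 2 farthest libraries. The 5 on the cerebellum minus forebrain difference became 3 in file numbers 1 to 24, 2 without the 2 farthest libraries and 0 with the microglia level as a term. The 4 on the microglia level became 2, 2 and, with the cerebellum term, 1. The 8 on the share of reads outside features became 4 with upper-quartile scaling, 5 with no filter, 3 with the run term, 0 in file numbers 1 to 24 and 2 without file numbers 30 to 34. Leaving out 1 library at a time gave 1 to 2, 2 to 6, 3 to 5 and 3 to 11 calls on these 4 measures. The muscle count was 1 without standard cholecalciferol replicate 1 or 25(OH)D replicate 1, 3 or 4. The cerebellum count was 3 without standard cholecalciferol replicate 1 and 2 without increased cholecalciferol replicate 1. The count on reads outside features was 5 without standard cholecalciferol replicate 1, increased cholecalciferol replicate 5 or combination replicate 5, 4 without increased cholecalciferol replicate 7 and 3 without increased cholecalciferol replicate 4. Signs turned for PSMD7 between the combination and increased cholecalciferol (-0.0555 in file numbers 1 to 24, -0.0047 without 30 to 34), for PSMA4 there (-0.0003 without 30 to 34), for PSMB3 between the combination and standard (-0.0511 with the muscle term) and for the cerebellum slope of PSME2 (0.0133 with the microglia term); the cause was not tested. No paired analysis was possible because the labels give no shared replicate numbers. Depth limits PSMB7, PSMB8, PSME1 and PSMD5 most.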
